A study of Homo sapiens with 10 samples.

Results

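The genes described here are 10 genes of fatty acid synthesis and desaturation, *FASN*, *ACACA*, *ACLY*, *SCD*, *ELOVL5*, *ELOVL6*, *FADS1*, *FADS2*, *SREBF1* and *ACSL3*, taken by symbol from the 59386 genes counted in each RNA-seq library. They were taken by name, with earlier results of these data known. All 10 passed the filter on low counts, which left 16899 genes for testing.

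In fatty acid synthesis, *ACLY* cuts citrate into acetyl-CoA in the cytosol, *ACACA* carboxylates acetyl-CoA to malonyl-CoA, and *FASN* joins these units into palmitate. *ELOVL6* lengthens palmitate to stearate and *SCD* places a double bond in these saturated chains, while *FADS2*, *ELOVL5* and *FADS1* act one after the other to convert dietary polyunsaturated fatty acids into longer and more unsaturated ones. *ACSL3* couples long-chain fatty acids to CoA and is known for its part in lipid droplet formation, and *SREBF1* encodes SREBP-1, a membrane-bound transcription factor that is released by proteolysis and drives many of these genes. Prostate cancer cells are known for high lipid synthesis, much of it under androgen control.

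The cells were VCaP, a line from prostate cancer that carries the TMPRSS2-ERG fusion and expresses the androgen receptor, and their RNA was sequenced 72 h after siRNA transfection. *SMARCA4* encodes BRG1, an ATPase of the SWI/SNF chromatin remodeling complexes, and *SMARCA1* encodes SNF2L, an ATPase of the ISWI family. *SMARCA4* was targeted with siRNA A or siRNA B and *SMARCA1* with siRNA A or siRNA C, each at 30 pmol, and the remaining libraries are labelled control, with 2 libraries in each of these 5 groups and 10 in all. All libraries come from this single line, the knockdowns are transient, and what the control libraries received, if any siRNA, is not given in the sources used here. Nothing states that the 2 libraries of a group came from separate cultures, so p-values measure only the spread between these libraries, which may be technical.

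Libraries held between 23898545 and 34667965 counts, and the 10 genes took between 0.644% and 0.809% of them. *SMARCA4* was at 242 and 268 CPM (counts scaled to the library total, normalized by TMM) in the controls and between 13.3 and 25.2 CPM in its 4 knockdown libraries (log2 fold change -3.70 ± 0.13 SE, adjusted p = 3.9e-07, edgeR's quasi-likelihood test). *SMARCA1* was at 32.3 and 31.5 CPM in the controls and between 1.75 and 3.40 CPM in its 4 knockdown libraries (-3.51 ± 0.18, adjusted p = 2.1e-06, same test), and it rose to between 57.4 and 83.8 CPM in *SMARCA4* knockdown (1.07 ± 0.18, adjusted p = 0.001). Of 9 markers of VCaP and luminal prostate cells none was at 0, with a summed level of 9581 to 9710 CPM in controls, 9294 to 10113 CPM in *SMARCA4* and 8378 to 9899 CPM in *SMARCA1* knockdown. Of 10 markers of blood, endothelial, stromal, liver and fat cells, *PTPRC*, *CD3E*, *ADIPOQ* and *LEP* did not pass the filter, and the summed level was 147 CPM in each control, 99.4 to 148 CPM in *SMARCA4* and 61.1 to 67.9 CPM in *SMARCA1* knockdown, most of it *ALB*. All 19 interferon response genes found in the files were called higher in each knockdown, and they took 0.0273% to 0.0281% of counts in controls, 1.56% to 4.07% in *SMARCA4* and 2.20% to 4.04% in *SMARCA1* knockdown. This rise accompanied every difference from control given below, and its part in them was not tested.

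The mean chi-square per gene between the 2 libraries of a group is larger where they differ more. It was 60.6 for *SMARCA1* siRNA A, 42.9 and 22.6 for *SMARCA4* siRNA A and B, 6.4 in the controls and 3.8 for *SMARCA1* siRNA C. The 2 *SMARCA1* siRNA A libraries also stood apart from each other along exonic length. Replicate 1 was lower than replicate 2 by a median log2 of -0.24 over the longest 25% of genes (exonic length of at least 7354 bp) and higher by 0.21 over the shortest 25% (at most 2691 bp), whereas in the other 4 groups these medians lay between -0.03 and 0.05. Of the 10 genes, 6 belong to the longest 25%. Values that rest on these libraries are therefore given with and without them where a call changes.

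By position on GRCh38, *FASN* lies on chr17:82078338-82098294, *ACACA* on chr17:37084992-37406836, *ACLY* on chr17:41866917-41930542 and *SREBF1* on chr17:17810399-17837002, all on the minus strand. *SCD* lies on chr10:100347233-100364826 and *ACSL3* on chr2:222860942-222944639, both on the plus strand, with *ELOVL5* on chr6:53267398-53349179 and *ELOVL6* on chr4:110045846-110199199, both on the minus strand. *FADS1* (chr11:61799627-61829318, minus strand) and *FADS2* (chr11:61792980-61867354, plus strand) overlap, and their exons share 490 bases, 4.79% of the exonic length of *FADS1* and 4.64% of that of *FADS2*. The *SREBF1* exons share 556 bases with *RAI1* on the opposite strand. The libraries were strand-specific, but whether counting used the strand is not given in the sources used here, so reads from these shared bases cannot be assigned with certainty.

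Promoter windows of RefSeq (GRCh38.p14), the 250 bases before a RefSeq start, were matched for 9 of the 10 genes in 13 windows, and *FASN* was not matched. Such a start can lie inside the span given above, as for *FADS1* and *ACLY*. Several windows overlap exons annotated by GENCODE, by up to 229 bases for *ELOVL5*, 194 for *FADS1* and 196 and 148 for *FADS2*. The *FADS2* windows overlap exons of *FADS1*. The *ACLY* windows overlap each other, as do those of *FADS2*, so a match in shared bases counts in both. The SREBP element core TCACNCCAC, searched on both strands, was in 0.883% of all 35116 windows and in 0 of the 13. A CACGTG E-box was in 6.34% of all windows and in 1 of the 13, that of *ELOVL5*, most of which is exon of that gene. CCAAT was in 32.0% of all windows and in 7 of the 13, which belong to 5 genes, and GGGCGG was in 42.6% of all windows and in 10 of the 13, which belong to 8 genes. The windows of *SCD*, which fell in both knockdowns, and of *ACLY*, which was called in neither, are printed because they hold the same 2 kinds of motif, with CCAAT and GGGCGG or their reverse complements in capitals. *SCD*, chr10:100346983-100347232, plus strand, with 2 CCAAT and 2 GGGCGG matches, and *ACLY*, chr17:41919023-41919272, minus strand, with 2 CCAAT and 3 GGGCGG matches, read 5′ to 3′:
SCD: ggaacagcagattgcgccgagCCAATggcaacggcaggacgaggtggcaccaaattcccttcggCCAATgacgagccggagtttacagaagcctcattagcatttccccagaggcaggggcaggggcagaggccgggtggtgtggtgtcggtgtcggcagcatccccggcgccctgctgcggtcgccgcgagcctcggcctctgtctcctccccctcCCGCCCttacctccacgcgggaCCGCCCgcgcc
ACLY: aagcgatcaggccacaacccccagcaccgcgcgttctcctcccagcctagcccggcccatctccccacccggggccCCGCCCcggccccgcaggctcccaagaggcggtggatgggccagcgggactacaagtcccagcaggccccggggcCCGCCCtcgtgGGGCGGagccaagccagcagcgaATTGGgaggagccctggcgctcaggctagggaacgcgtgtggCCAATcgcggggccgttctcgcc
The matches are letters in these windows, and binding of a factor was not measured here.

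Per exonic length (RPKM, the CPM divided by the exonic length in kilobases), *SCD* and *FASN* were the highest of the 10 genes in the controls, at 344 ± 15 and 323 ± 18 RPKM (SD, n = 2), with overlapping libraries. *ACLY* at 75.2 ± 0.2 RPKM and *ACSL3* at 74.5 ± 3.4 RPKM followed and overlapped each other, then *ACACA* at 56.9 ± 0.5, *ELOVL5* at 48.4 ± 5.4, *FADS1* at 26.4 ± 0.7, *SREBF1* at 19.0 ± 0.9, *ELOVL6* at 16.5 ± 0.7 and *FADS2* at 10.7 ± 0.2 RPKM, none of which overlapped its neighbour. In *SMARCA4* knockdown *FASN* stood first at 327 ± 37 RPKM (SD, n = 4), ahead of *SCD* at 160 ± 18 and *ACSL3* at 109 ± 9 RPKM, and these 3 did not overlap. The same order held in *SMARCA1* knockdown, with *FASN* at 375 ± 33, *SCD* at 199 ± 41 and *ACSL3* at 128 ± 14 RPKM. *ACLY* was next in both knockdowns, at 74.6 ± 8.2 RPKM after *SMARCA4* and 81.2 ± 4.5 RPKM after *SMARCA1* siRNAs.

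**Figure D1:**
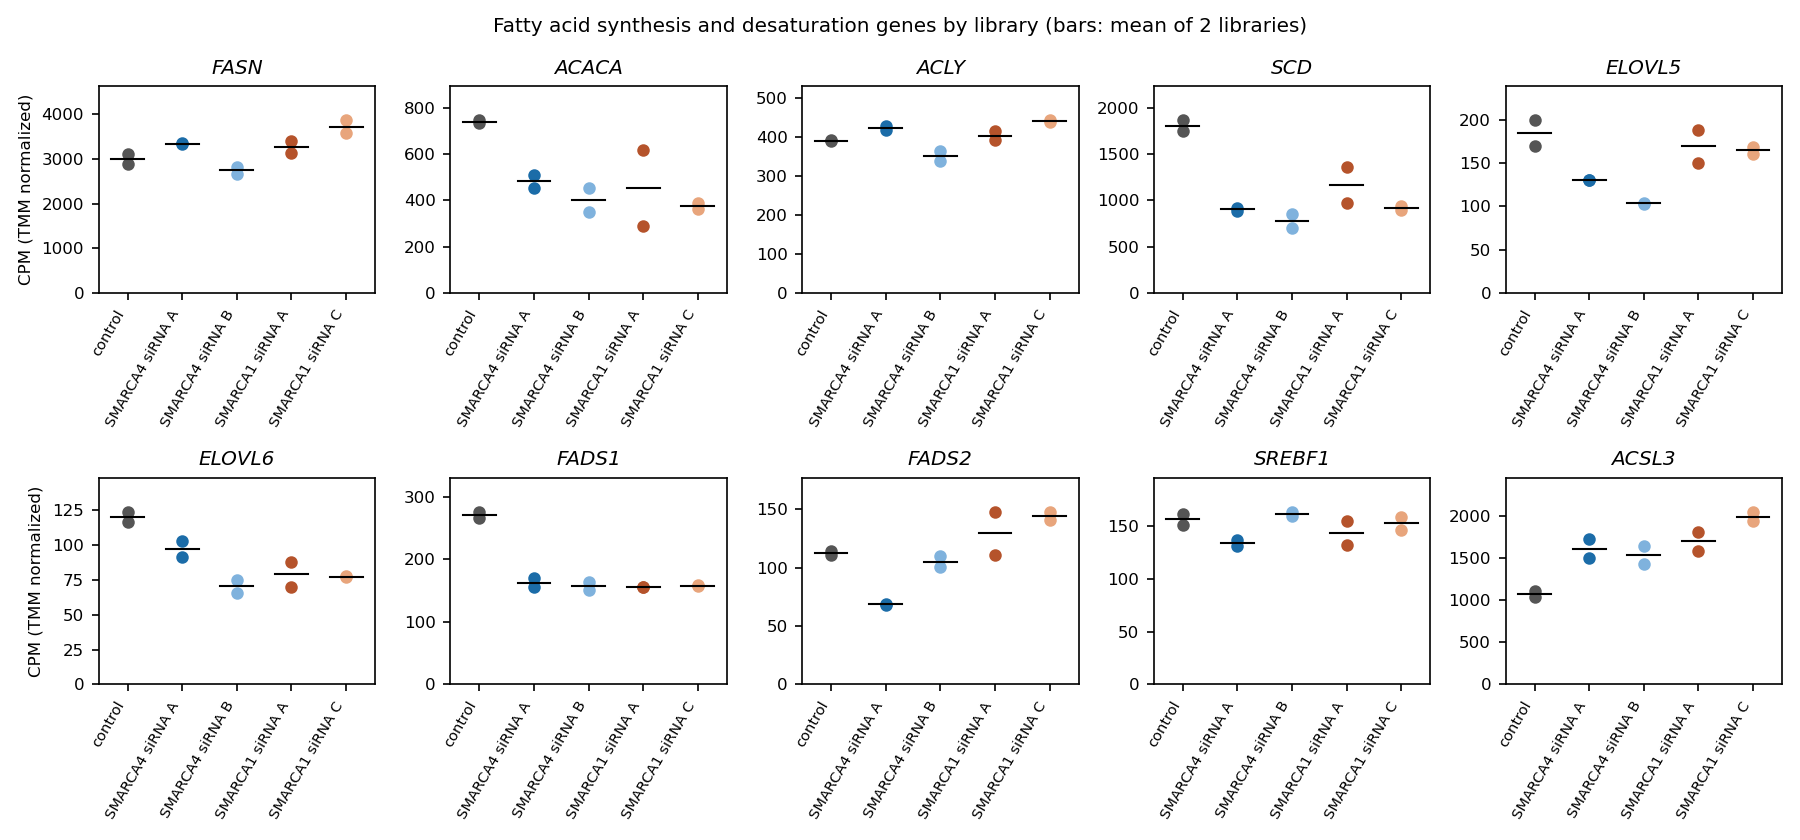
CPM (y axis, from 0, normalized by TMM) of each of the 10 genes in the 10 libraries, grouped on the x axis by control and siRNA, with a bar at the mean of the 2 libraries of a group. All 8 knockdown libraries of *SCD*, *FADS1*, *ELOVL6* and *ACACA* lie below both controls, and those of *ACSL3* lie above them. In *SMARCA4* or *SMARCA1* knockdown alone, 58.5% and 58.2% of all genes lay wholly on the same side of the controls. The share over both knockdowns together is not given here.

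The first comparison asks how the levels of these genes in *SMARCA4* knockdown differed from control. The elongases *ELOVL5* and *ELOVL6*, the desaturases *SCD*, *FADS1* and *FADS2* and the carboxylase *ACACA* were lower, and the acyl-CoA synthetase *ACSL3* was higher. *FASN*, *ACLY* and *SREBF1* were not called. In all, 7 of the 10 genes had an adjusted p below 0.05 and are called here, where 45.1% of all genes tested were called, 1 of them higher (22.8% of all genes) and 6 lower (22.3% of all genes). The median log2 fold change was -0.47 over the 10 genes and 0.00 over all genes. *SCD*, *ELOVL5*, *FADS1* and *ACSL3* were also called with each *SMARCA4* siRNA alone in the same direction, which held for 27.7% of all genes. All 4 knockdown libraries lay on the same side of both controls for 7 of the 10 genes, as for 58.5% of all genes.

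In *SMARCA1* knockdown, the second comparison, *SCD*, *FADS1*, *ELOVL6* and *ACACA* were lower and *ACSL3* was higher. *ELOVL5*, *FADS2*, *FASN*, *ACLY* and *SREBF1* were not called. Thus 5 of the 10 genes were called, against 46.8% of all genes tested, 1 higher (23.8% of all genes) and 4 lower (23.0% of all genes). An unadjusted p below 0.05 was found for 7 of the 10, and the share of all genes at that threshold is not given here. The median log2 fold change was -0.11 over the 10 genes and 0.00 over all genes. By exonic length it was -0.12 over the longest 25% of genes, to which 6 of the 10 belong, and 0.04 over the shortest 25%. The median of the 10 genes was thus near that of the longest genes, and the part of length in it was not tested. *SCD*, *ELOVL6*, *FADS1* and *ACSL3* were called with each *SMARCA1* siRNA alone, as 30.0% of all genes were. Knockdown libraries lay wholly above or below the controls for 6 of the 10 genes, as for 58.2% of all genes.

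Both comparisons use the same 2 control libraries. *ACACA*, *SCD*, *ELOVL6* and *FADS1* were called lower in both knockdowns, which was so for 13.7% of all genes, and *ACSL3* was called higher in both, which was so for 16.2%. In these bulk samples, fewer cells of a kind and less RNA per cell cannot be told apart.

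**Figure D2:**
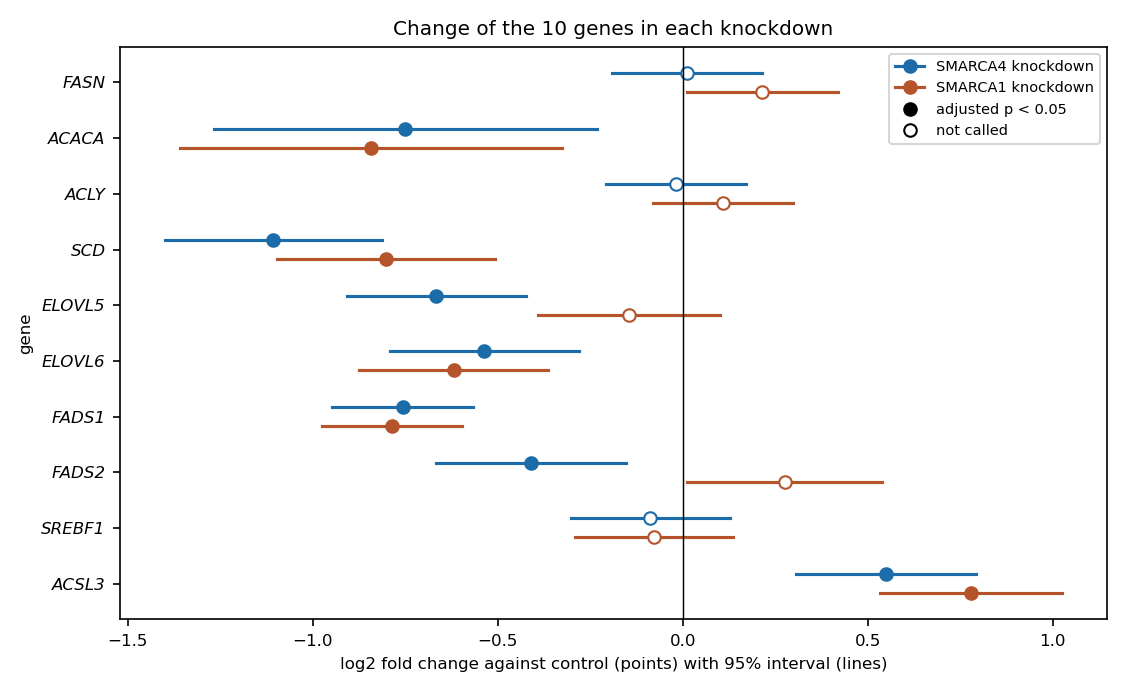
Log2 fold change against control (x axis) of the 10 genes (y axis) in *SMARCA4* (blue) and *SMARCA1* (brown) knockdown with 95% intervals, filled where the adjusted p was below 0.05. *SCD* has the lowest value, -1.11 in *SMARCA4* knockdown, and the 2 knockdowns lie apart for *ELOVL5* and *FADS2*.

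*SREBF1*, the regulator, was at 152 and 162 CPM in the controls, 131 and 137 CPM with *SMARCA4* siRNA A, 160.3 and 164 CPM with siRNA B, 155 and 133 CPM with *SMARCA1* siRNA A and 147 and 159 CPM with siRNA C. Each knockdown overlapped the controls. The log2 fold change was -0.09 (95% interval -0.30 to 0.13, adjusted p = 0.49) after *SMARCA4* and -0.08 (-0.29 to 0.14, adjusted p = 0.53) after *SMARCA1* siRNAs in edgeR's quasi-likelihood test. SREBP-1 protein and its cleavage were not measured.

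*ACLY*, the source of cytosolic acetyl-CoA, was at 391 and 392 CPM in the controls, 429.9 and 419 CPM with *SMARCA4* siRNA A, 365 and 340.4 CPM with siRNA B, 392 and 417 CPM with *SMARCA1* siRNA A and 443 and 439 CPM with siRNA C. With *SMARCA4* siRNA A it was above the controls and with siRNA B below them. The log2 fold change was -0.02 (95% interval -0.21 to 0.17, adjusted p = 0.88) in *SMARCA4* and 0.11 (-0.08 to 0.30, adjusted p = 0.31) in *SMARCA1* knockdown by the same quasi-likelihood test.

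*ACACA*, the carboxylase that commits acetyl-CoA to fatty acid synthesis, was at 746 and 737 CPM in the controls, 455 and 512 CPM with *SMARCA4* siRNA A and 352 and 452 CPM with siRNA B. With *SMARCA1* siRNA A it was at 288 and 618 CPM, the lowest and the highest of all knockdown libraries, and with siRNA C at 389.6 and 364 CPM. Every knockdown library was below both controls. *ACACA* fell by 0.75 on the log2 scale (SE 0.23, adjusted p = 0.024) in *SMARCA4* and by 0.84 (SE 0.23, adjusted p = 0.014) in *SMARCA1* knockdown in edgeR's test, to 59.7% and 56.0% of the control mean.

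These *ACACA* calls depended on the siRNA and on single libraries. With siRNA A alone *ACACA* was not called for *SMARCA4* (-0.62, adjusted p = 0.11) or *SMARCA1* (-0.71, adjusted p = 0.071) in edgeR's test. It was called with *SMARCA4* siRNA B (-0.88, adjusted p = 0.025) and *SMARCA1* siRNA C (-0.98, adjusted p = 0.017) in that test. After *SMARCA4* siRNAs the adjusted p was 0.14 without control replicate 1, 0.12 without control replicate 2, 0.072 without siRNA A replicate 1 and 0.08 without siRNA B replicate 1. After *SMARCA1* siRNAs it was 0.089 and 0.076 without control replicate 1 and 2. The log2 values under these omissions lay between -0.62 and -0.84. With an exonic length of 13022 bp *ACACA* belongs to the longest 25% of genes, in which the *SMARCA1* siRNA A libraries differed, and the part of that difference in its spread was not tested.

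*FASN*, the synthase itself, was at 2891 and 3123 CPM in the controls, 3352 and 3328 CPM with *SMARCA4* siRNA A, 2829.6 and 2666 CPM with siRNA B, 3408 and 3131 CPM with *SMARCA1* siRNA A and 3863 and 3588 CPM with siRNA C. The *SMARCA4* libraries lay on both sides of the controls, and the 4 *SMARCA1* libraries lay above them, the nearest by less than the gap between the controls. The log2 fold change was 0.01 (95% interval -0.19 to 0.21, adjusted p = 0.94) in *SMARCA4* knockdown. In *SMARCA1* knockdown it was 0.21 (0.01 to 0.42) with an adjusted p of 0.079 in the quasi-likelihood test. This value passed the threshold with *SMARCA1* siRNA C alone (0.31 ± 0.11 SE, adjusted p = 0.036), without *SMARCA1* siRNA A replicate 2 (0.27, adjusted p = 0.018) and without either *SMARCA4* siRNA A library (0.24, adjusted p = 0.042 and 0.043).

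*ELOVL6*, which elongates palmitate, was at 124 and 116 CPM in the controls, 91.5 and 103 CPM with *SMARCA4* siRNA A, 65.3 and 75.1 CPM with siRNA B, 69.5 and 88.1 CPM with *SMARCA1* siRNA A and 77.7 and 76.8 CPM with siRNA C. All knockdown libraries were below the controls. *ELOVL6* fell by 0.54 on the log2 scale (SE 0.11, adjusted p = 0.0038) in *SMARCA4* and by 0.62 (SE 0.11, adjusted p = 0.0018) in *SMARCA1* knockdown by edgeR's test. With *SMARCA4* siRNA A alone the value was -0.30 (adjusted p = 0.11), and without control replicate 1 the *SMARCA4* value was -0.45 (adjusted p = 0.067).

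*ELOVL5*, the elongase of polyunsaturated fatty acids, was at 199 and 170.0 CPM in the controls, 131 and 131 CPM with *SMARCA4* siRNA A, 103 and 104 CPM with siRNA B, 151 and 188 CPM with *SMARCA1* siRNA A and 161 and 168 CPM with siRNA C. The 4 *SMARCA4* libraries were below the controls, and the *SMARCA1* libraries overlapped them. *ELOVL5* fell by 0.67 on the log2 scale (SE 0.11, adjusted p = 0.00084) in *SMARCA4* knockdown, to 63.4% of the control mean. In *SMARCA1* knockdown the log2 fold change was -0.15 (95% interval -0.39 to 0.10, adjusted p = 0.30) in the same edgeR test.

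*SCD*, the stearoyl-CoA desaturase, was at 1861 and 1752 CPM in the controls, 915 and 889 CPM with *SMARCA4* siRNA A, 705 and 855 CPM with siRNA B, 975 and 1361 CPM with *SMARCA1* siRNA A and 938 and 900.5 CPM with siRNA C. No knockdown library reached the controls, and the highest was *SMARCA1* siRNA A replicate 2. *SCD* fell by 1.11 on the log2 scale (SE 0.13, adjusted p = 0.00014) in *SMARCA4* knockdown and by 0.80 (SE 0.13, adjusted p = 0.00097) in *SMARCA1* knockdown by edgeR's quasi-likelihood test, to 46.6% and 57.8% of the control mean. It was called lower with each of the 4 siRNAs, and on the log2 scale it fell by 1.00 and fell by 1.21 with *SMARCA4* siRNA A and B and fell by 0.63 and fell by 0.97 with *SMARCA1* siRNA A and C.

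*FADS1*, the delta-5 desaturase, was at 265 and 275 CPM in the controls, 155 and 170.2 CPM with *SMARCA4* siRNA A, 151 and 163 CPM with siRNA B, 156 and 156 CPM with *SMARCA1* siRNA A and 157 and 158 CPM with siRNA C. The 8 knockdown libraries formed a narrow band below both controls. *FADS1* fell by 0.76 on the log2 scale (SE 0.09, adjusted p = 0.0001) in *SMARCA4* and by 0.79 (SE 0.09, adjusted p = 0.00011) in *SMARCA1* knockdown in edgeR's test. With single siRNAs the log2 fold change ranged from -0.73 with *SMARCA4* siRNA A to -0.80 with *SMARCA1* siRNA A.

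*FADS2*, the delta-6 desaturase encoded beside *FADS1*, was at 111 and 114 CPM in the controls, 69.2 and 67.6 CPM with *SMARCA4* siRNA A and 110.3 and 100.1 CPM with siRNA B. With *SMARCA1* siRNA A it was at 148 and 111 CPM and with siRNA C at 147 and 141 CPM. The *SMARCA4* libraries were below the controls, by far more with siRNA A than with siRNA B, whose replicate 1 was within 1 CPM of the lower control. *FADS2* fell by 0.41 on the log2 scale (SE 0.12, adjusted p = 0.015) in *SMARCA4* knockdown, while the value was -0.72 (adjusted p = 0.0031) with siRNA A and -0.10 (adjusted p = 0.57) with siRNA B alone. The adjusted p was 0.10 without control replicate 1, 0.13 without control replicate 2, 0.05 without *SMARCA4* siRNA A replicate 2 and 0.065 without siRNA B replicate 2, each in edgeR.

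In *SMARCA1* knockdown 3 of the 4 *FADS2* libraries were above the controls, and *SMARCA1* siRNA A replicate 2 was at the level of the lower control. The log2 fold change was 0.28 (95% interval 0.01 to 0.54, adjusted p = 0.079) and became 0.40 (adjusted p = 0.0011) without that replicate in edgeR's test.

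*ACSL3*, which activates long-chain fatty acids, was at 1111 and 1040.2 CPM in the controls, 1725 and 1502 CPM with *SMARCA4* siRNA A, 1642 and 1430.0 CPM with siRNA B, 1594 and 1818 CPM with *SMARCA1* siRNA A and 2053 and 1943 CPM with siRNA C. It was above both controls in all knockdown libraries. *ACSL3* rose by 0.55 on the log2 scale (SE 0.11, adjusted p = 0.0026) in *SMARCA4* and by 0.78 (SE 0.11, adjusted p = 0.00044) in *SMARCA1* knockdown by the quasi-likelihood test, to 146% and 172% of the control mean. Single siRNAs gave 0.59 and 0.51 for *SMARCA4* siRNA A and B and 0.67 and 0.89 for *SMARCA1* siRNA A and C.

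**Figure D3:**
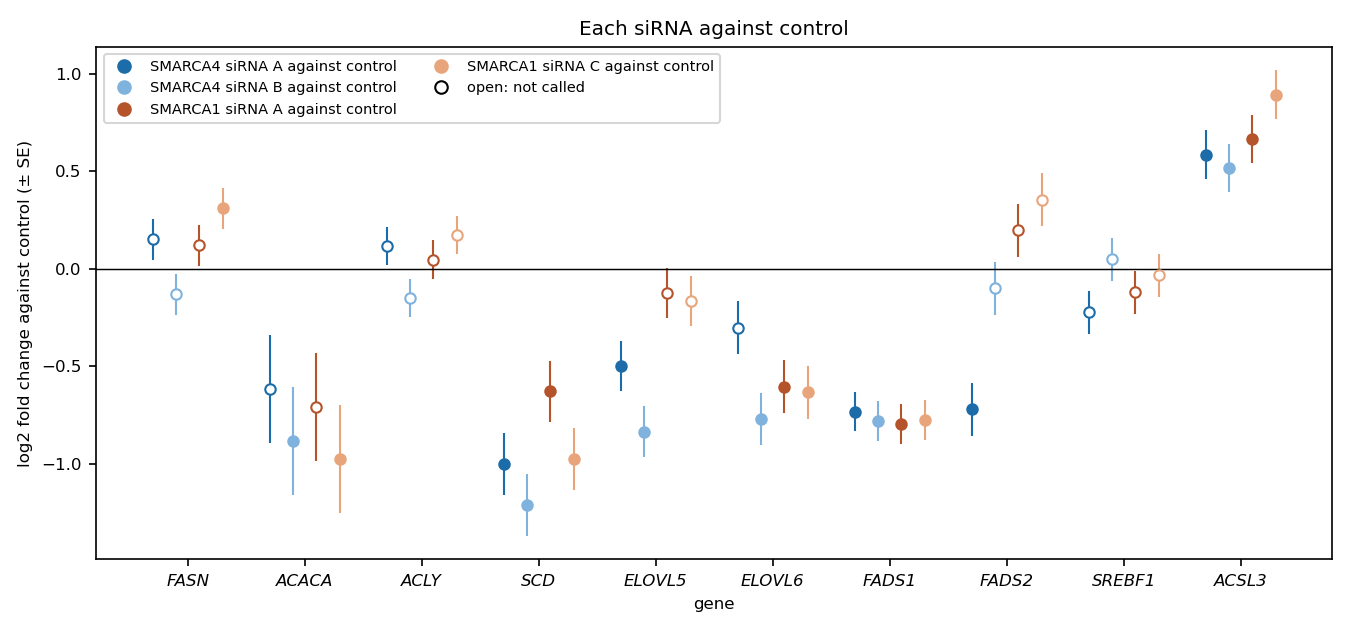
Log2 fold change against control (y axis, ± SE) of the 10 genes (x axis) for each of the 4 siRNAs, filled where the adjusted p was below 0.05. *FADS1* lies between -0.73 and -0.80 with all 4 siRNAs, and *FADS2* ranges from -0.72 with *SMARCA4* siRNA A to 0.35 with *SMARCA1* siRNA C.

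The knockdowns were then compared with each other. *ELOVL5* and *FADS2* were lower in *SMARCA4* than in *SMARCA1* knockdown, and no member was called higher. This makes 2 of the 10 genes, where 35.4% of all genes tested were called, 16.3% higher and 19.1% lower. The log2 difference, *SMARCA4* minus *SMARCA1*, was -0.52 ± 0.09 SE (adjusted p = 0.0021) for *ELOVL5* and -0.69 ± 0.10 (adjusted p = 0.00064) for *FADS2* in edgeR's quasi-likelihood test. The 4 *SMARCA4* libraries were at 103 to 131 CPM and the 4 *SMARCA1* libraries at 151 to 188 CPM for *ELOVL5*. For *FADS2* they were at 67.6 to 110.3 CPM and at 111.1 to 148 CPM. The *FADS2* ranges nearly met, at *SMARCA4* siRNA B replicate 1 and *SMARCA1* siRNA A replicate 2. The share of all genes whose libraries lay apart in this way is not given here. Over exonic length, the median log2 difference between the knockdowns was 0.12 for the longest 25% of genes and -0.16 for the shortest 25%, and *FADS2* (10553 bp) belongs to the longest class while *ELOVL5* (3813 bp) belongs to neither.

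A further 3 genes had an unadjusted p below 0.05 in this comparison, and the share of all genes at that threshold is not given here. *SCD* differed by -0.30 (95% interval -0.55 to -0.06, adjusted p = 0.056), *FASN* by -0.20 (-0.37 to -0.04, adjusted p = 0.056) and *ACSL3* by -0.23 (-0.42 to -0.04, adjusted p = 0.064). With all libraries, *SCD* passed the threshold under upper quartile normalization (-0.31, adjusted p = 0.043), with no filter on low counts (-0.28, adjusted p = 0.007) and with a replicate block (-0.30, adjusted p = 0.049) in edgeR and in DESeq2 (-0.30, adjusted p of 0.05 after rounding). *ACSL3* passed it under upper quartile normalization (-0.24, adjusted p = 0.042) and with a filter of 1 CPM in 2 libraries (-0.23, adjusted p of 0.05 after rounding). Without *SMARCA1* siRNA A replicate 1, *SCD* was at -0.40 (adjusted p = 0.0049) and *ACSL3* at -0.27 (adjusted p = 0.027). Without *SMARCA1* siRNA A replicate 2, *FASN* was at -0.23 (adjusted p = 0.023), and without *SMARCA4* siRNA A replicate 1 *ACSL3* was at -0.27 (adjusted p = 0.042). *FADS1* differed by 0.03 (95% interval -0.13 to 0.19) and *ELOVL6* by 0.08 (-0.13 to 0.30), with adjusted p of 0.78 and 0.52. *ACACA* differed by 0.09 (-0.34 to 0.53, adjusted p = 0.74), and this became -0.12 (adjusted p = 0.38) without *SMARCA1* siRNA A replicate 1 and 0.43 (adjusted p = 0.0064) without replicate 2, all by edgeR's test.

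Between the siRNAs of a target, *FADS2* was called for *SMARCA4*, 1 of the 10 genes, where 6.2% of all genes were called. It was lower with siRNA A than with siRNA B by a log2 of -0.62 ± 0.14 SE (edgeR, adjusted p = 0.029). DESeq2 called 2 members there, *ELOVL6* being the other, and 9.91% of all genes. A total of 6 members had an unadjusted p below 0.05 in this comparison. The share of all genes at that threshold is not given here, and the 6.2% is after adjustment. The *FADS2* call was lost without any 1 of 8 libraries (adjusted p between 0.062 and 0.17), and kept without either *SMARCA1* siRNA A library, with values between -0.57 and -0.68 where it was lost. Without *SMARCA1* siRNA A replicate 1 or 2, a further 4 members were called with siRNA A against siRNA B in edgeR, where 16.3% and 16.4% of all genes were called. *ACLY* was then higher by 0.25 and 0.26 (adjusted p = 0.048 and 0.042), *ELOVL5* by 0.32 and 0.33 (0.036 and 0.033) and *ELOVL6* by 0.45 and 0.46 (0.016 and 0.015), and *SREBF1* was at -0.29 and -0.28 (0.037 and 0.041). The *SMARCA4* transcript had 25.2 and 23.2 CPM under siRNA A and 18.6 and 13.3 CPM under siRNA B (0.60 ± 0.15, adjusted p = 0.048). For *SMARCA1* siRNA A against siRNA C, 0 of the 10 genes were called by edgeR and 0 by DESeq2, 0 had an unadjusted p below 0.05, and edgeR called 0.0118% and DESeq2 3.05% of all genes tested. The largest difference there was 0.35 for *SCD* (95% interval 0.00 to 0.69, adjusted p = 0.30). Without *SMARCA1* siRNA A replicate 1, *ACACA* was called at 0.73 (adjusted p = 0.049), with 1.51% of all genes called, and without replicate 2 no member was called, with 10.9% of all genes called, both by edgeR.

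Ratios of counts within a library do not depend on scaling between libraries. There were 2.39 and 2.41 *FADS1* counts per *FADS2* count in the controls, 2.24 and 2.52 with *SMARCA4* siRNA A, 1.37 and 1.63 with siRNA B, 1.05 and 1.40 with *SMARCA1* siRNA A and 1.07 and 1.12 with siRNA C. With *SMARCA4* siRNA A this ratio lay on both sides of the controls, and with the other 3 siRNAs it lay below them. The *SCD* counts per *FASN* count were 0.644 and 0.561 in the controls, 0.273 and 0.267 with *SMARCA4* siRNA A, 0.249 and 0.321 with siRNA B, 0.286 and 0.435 with *SMARCA1* siRNA A and 0.243 and 0.251 with siRNA C. This ratio was below the controls in all 8 knockdown libraries. *FASN* supplied 36.8% and 39.6% of the counts of the 10 genes in the controls and between 39.0% and 46.5% in the knockdown libraries.

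**Figure D4:**
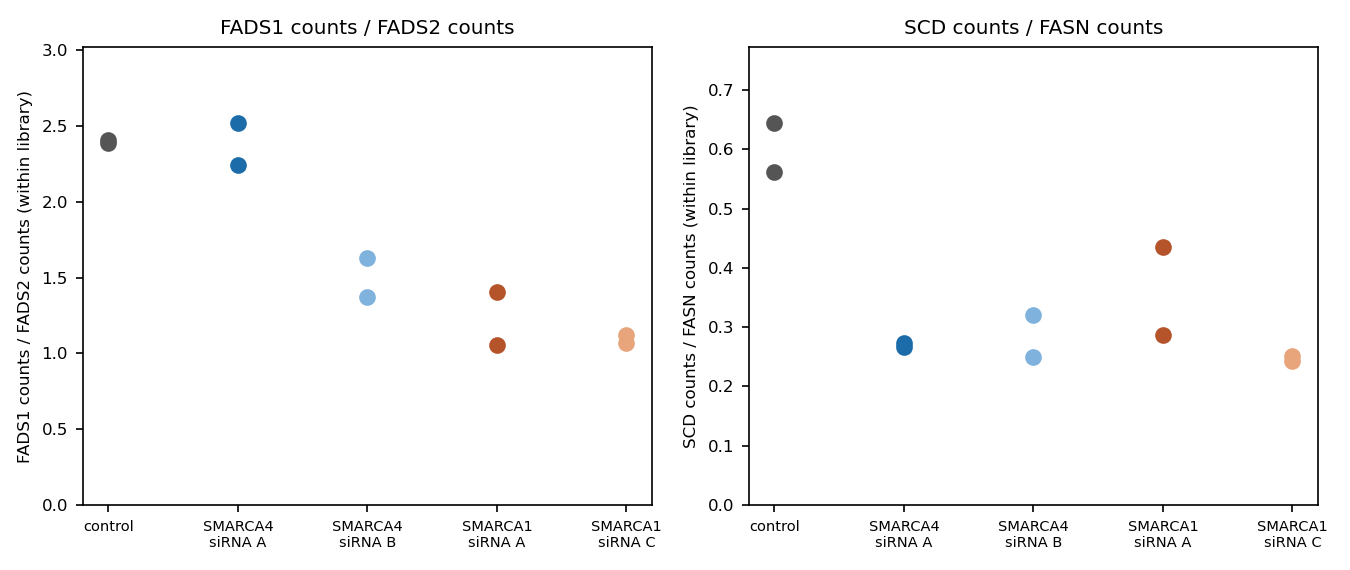
Ratio of *FADS1* to *FADS2* counts (left) and of *SCD* to *FASN* counts (right) within each library (y axes, from 0) by control and siRNA (x axes), each point a library. The *FADS1* to *FADS2* ratio is 2.24 to 2.52 in the controls and with *SMARCA4* siRNA A and 1.05 to 1.63 elsewhere, and the *SCD* to *FASN* ratio is 0.243 to 0.435 in the knockdowns against 0.561 and 0.644 in the controls.

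Other genes of lipid metabolism were followed in 8 lists of 95 genes, 91 of them tested. In *SMARCA4* knockdown 15 were called higher, 19 lower and 57 were not called, and in *SMARCA1* knockdown 25 were called higher, 20 lower and 46 were not called. The share called was 37.4% and 49.5%, against 45.1% and 46.8% of all genes tested. Of all genes, 22.8% were called higher and 22.3% lower in *SMARCA4* knockdown, and 23.8% and 23.0% in *SMARCA1* knockdown. The counts of each list below are to be read beside these shares. The median log2 fold change over the 91 genes was -0.01 and 0.13. Without control replicate 1, 17 and 23 of these genes were called in *SMARCA4* and *SMARCA1* knockdown, and the share of all genes called was 25.0% and 25.1%. A gene is named where it passed the threshold of edgeR's test in a knockdown and with both siRNAs of that target taken singly. A gene named for a single knockdown can also have been called in the other without meeting this rule there, and such calls are given.

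Among 10 genes that supply acetyl-CoA and NADPH, 2 were called higher and 3 lower in each knockdown. *IDH1*, the cytosolic isocitrate dehydrogenase, rose by 1.18 ± 0.11 on the log2 scale in *SMARCA4* knockdown. *CS*, the citrate synthase, fell in both (-1.06 ± 0.08 in *SMARCA4* and -0.51 ± 0.08 in *SMARCA1* knockdown). *ACSS2*, which makes acetyl-CoA from acetate, rose by 0.46 ± 0.09 in each. The pyruvate dehydrogenase subunits *PDHA1* (-0.51 ± 0.09, *SMARCA4*) and *PDHB* (-0.40 ± 0.09, *SMARCA1*) fell.

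Of the 6 tested other carboxylase and synthase genes, 0 were called higher and 2 lower in each knockdown, with *MECR*, a reductase of mitochondrial fatty acid synthesis, at -1.04 ± 0.13 after *SMARCA4* siRNAs. *MECR* was also called lower in *SMARCA1* knockdown (-0.44 ± 0.13). Of 9 other elongases and desaturases, 3 were called higher and 0 lower in *SMARCA4* and 3 higher and 1 lower in *SMARCA1* knockdown. *ELOVL2*, an elongase that acts beside *ELOVL5*, rose by 0.87 ± 0.14 in *SMARCA1* knockdown. The dihydroceramide desaturases *DEGS1* (0.38 ± 0.09, *SMARCA4*) and *DEGS2* (0.84 ± 0.18, *SMARCA1*) rose as well. *DEGS2* was also called higher in *SMARCA4* knockdown (0.90 ± 0.18). Of 8 genes of the shared elongation cycle and its electron donors, 0 were called higher and 2 lower in *SMARCA4* and 3 higher and 1 lower in *SMARCA1* knockdown, with *CYB5B*, a cytochrome b5, at 0.36 ± 0.09 in the latter.

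Of 9 other acyl-CoA synthetases and binding proteins, 2 were called higher and 2 lower in each knockdown. *ACSL1*, a relative of *ACSL3*, rose by 1.15 ± 0.17 in *SMARCA4* and 1.27 ± 0.17 in *SMARCA1* knockdown. *FABP5*, a fatty acid binding protein, fell by 2.19 (SE 0.12) in *SMARCA4* and fell by 1.23 (SE 0.12) in *SMARCA1* knockdown. *ACSL5* fell by 0.90 (SE 0.15) in *SMARCA4* knockdown, and in *SMARCA1* knockdown *ACSM3* fell by 1.02 (SE 0.12) and *DBI*, the acyl-CoA binding protein, rose by 0.71 ± 0.12.

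Of 16 genes of SREBP processing and lipogenic regulation, 4 were called higher and 2 lower in *SMARCA4* and 6 higher and 4 lower in *SMARCA1* knockdown. *MBTPS1*, the site-1 protease that cleaves SREBPs, fell by 0.80 (SE 0.09) in *SMARCA1* knockdown. *PRKAA1* and *PRKAA2*, the catalytic subunits of AMP-activated kinase, were lower there by log2 changes of -1.07 ± 0.17 and -1.83 ± 0.31. *PRKAA2* was also called lower in *SMARCA4* knockdown (-0.87 ± 0.31). *RXRA*, a nuclear receptor partner, rose by 0.51 ± 0.09 in *SMARCA4* and 0.67 ± 0.09 in *SMARCA1* knockdown. *PPARG* (1.07 ± 0.26) and the kinase subunit *PRKAB1* (0.41 ± 0.09) rose in *SMARCA4* knockdown. The liver X receptors *NR1H3* (0.94 ± 0.17) and *NR1H2* (0.46 ± 0.12) rose in *SMARCA1* knockdown. *PRKAB1* was also called higher in *SMARCA1* knockdown (0.34 ± 0.09) and *NR1H2* in *SMARCA4* knockdown (0.35 ± 0.12).

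Of 14 genes of triglyceride synthesis and lipid droplets, 4 were called higher and 2 lower in *SMARCA4* and 5 higher and 2 lower in *SMARCA1* knockdown. *MGLL*, the monoglyceride lipase, fell in both (-1.45 ± 0.25 and -1.35 ± 0.25), as did *GPAM*, which starts glycerolipid synthesis (-0.80 ± 0.18 and -1.23 ± 0.18). The lipid droplet coat gene *PLIN3* rose by 0.75 ± 0.13 and 0.50 ± 0.13, and *PLIN2* (1.22 ± 0.18) and *AGPAT2* (0.64 ± 0.16) rose in *SMARCA1* knockdown. *PLIN2* was also called higher in *SMARCA4* knockdown (0.59 ± 0.17).

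Of 19 genes of mitochondrial fatty acid oxidation, 0 were called higher and 6 lower in *SMARCA4* and 4 higher and 5 lower in *SMARCA1* knockdown. The share called was 31.6% and 47.4%, where 45.1% and 46.8% of all genes were called. *CPT1A*, which admits fatty acids to mitochondria and is inhibited by the product of *ACACA*, fell in both (-0.65 ± 0.12 and -1.14 ± 0.12). *HADH* also fell in both (-1.24 ± 0.10 and -0.63 ± 0.10). *HADHA* fell in *SMARCA4* knockdown (-0.40 ± 0.09) and *ETFDH* in *SMARCA1* knockdown (-0.77 ± 0.11). *HADHA* was also called lower in *SMARCA1* knockdown (-0.26 ± 0.09) and *ETFDH* in *SMARCA4* knockdown (-0.50 ± 0.11). The acyl-CoA dehydrogenases *ACADS* (0.99 ± 0.21) and *ACADL* (0.71 ± 0.19) rose in *SMARCA1* knockdown.

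**Figure D5:**
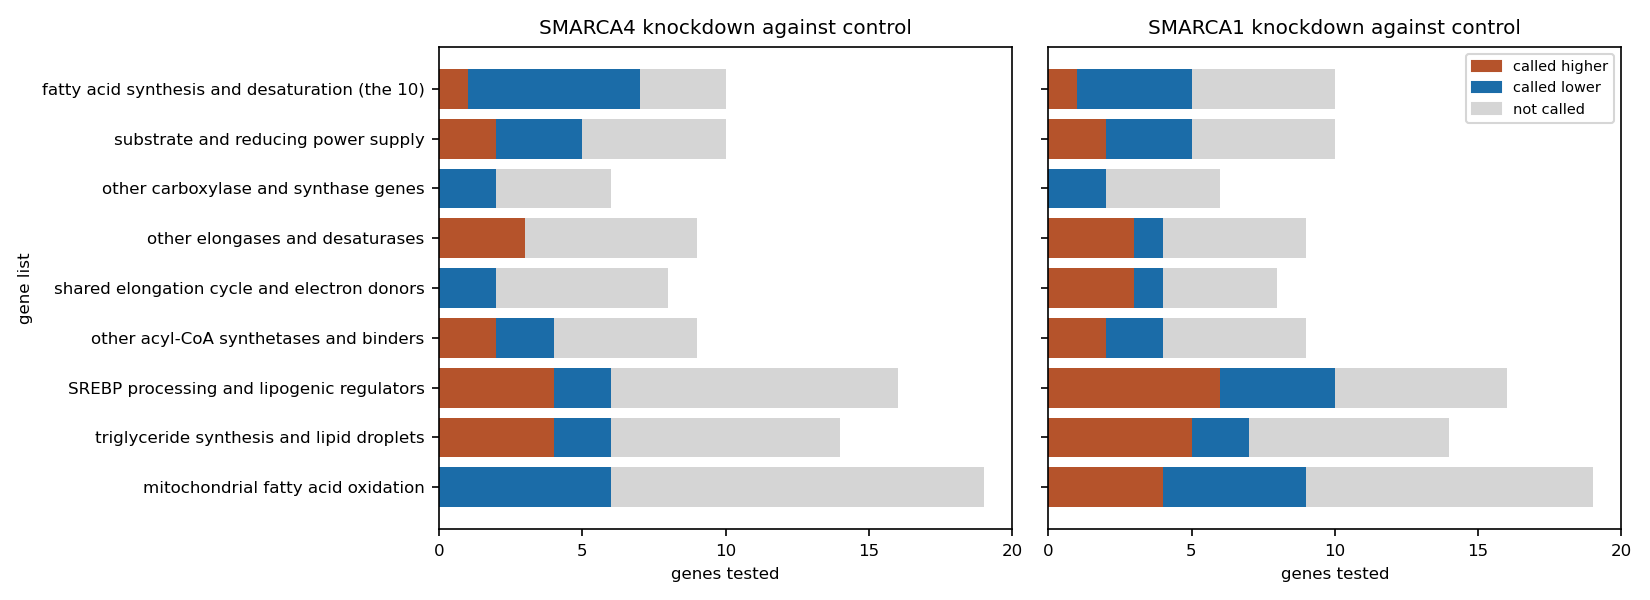
Number of genes tested (x axis) in each list (y axis) that were called higher (brown), called lower (blue) or not called (grey) in *SMARCA4* (left) and *SMARCA1* (right) knockdown. Of the 10 genes of fatty acid synthesis and desaturation 6 and 4 were lower, and of 19 oxidation genes 6 and 5 were lower. Of all genes tested 22.3% and 23.0% were called lower.

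For 3 of the genes, those with the most similar change were sought among 13646 genes at 1 CPM or more, by the root mean square difference in log2 fold change over the 4 siRNA groups, which share their controls. *FASN* was most like *SEC11C* (0.04), *DNAJB1* (0.04) and *TSPAN13* (0.05). *SCD* was most like *TYMS* (0.05), *TTC3P1* (0.05) and *DPYSL2* (0.07), and *SREBF1* was most like *NAA80* (0.03), *DDX11* (0.04) and *NXT2* (0.04).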

How the data were processed

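The authors sequenced strand-specific paired-end libraries, aligned adaptor-trimmed reads to GRCh38 with HISAT2 (2.1.0 in the submitters' processing notes) and counted them per gene with FeatureCounts (1.5.2 there) on GENCODE annotations. The deposited values are raw counts per gene without normalization, with exon positions and exonic lengths, which were used here for RPKM.

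Groups, siRNAs and replicate numbers were taken from the sample labels. The 10 members and the lists were chosen with earlier results of these data known. Genes were kept by filterByExpr (minimum count 10, minimum total 15) of edgeR 4.0.16 in R 4.3.3, normalized by TMM (factors 0.963 to 1.028) and fitted with the quasi-likelihood model (glmQLFit, glmQLFTest), the 10 libraries forming 5 groups. A knockdown effect is the average of the 2 siRNA groups of a target minus control. P-values were adjusted over all 16899 genes by Benjamini-Hochberg and called below 0.05. Standard errors are the log2 fold change divided by the root of F. A floor of 3 counts corresponds to 0.0865 to 0.126 CPM, for counting error only.

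All members are named. Of each pathway list, up to 3 genes that rose and 3 that fell most are named for each knockdown, if also called with each siRNA, and 1 gene that meets this rule is not reported here. Alternatives were DESeq2 1.42.0, other normalizations and filters, a replicate block, fewer libraries and single siRNAs.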

Additional observations from a re-analysis of the deposited data

Results flagged for a closer look

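*SCD* in *SMARCA1* siRNA A replicate 2, at 1361 CPM, lay far from the other 3 *SMARCA1* knockdown libraries (900.5 to 975 CPM) for the range of the group. It was 1 of 20 pairs of gene and knockdown examined, and chance gives about 1 in 20. The same library differed from its replicate along exonic length, and the part of this in the value was not tested. The fall of *SCD* in *SMARCA1* knockdown was called without this library as with it.

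*FADS2* differed between *SMARCA4* siRNA A and siRNA B by a log2 of -0.62 (edgeR, adjusted p = 0.029), with 69.2 and 67.6 CPM against 110.3 and 100.1 CPM. The *SMARCA4* transcript also differed between them, and the part of this was not tested.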

How the results depend on the processing

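The calls of *SCD*, *ELOVL5*, *FADS1* and *ACSL3* in *SMARCA4* and of *SCD*, *ELOVL6*, *FADS1* and *ACSL3* in *SMARCA1* knockdown held under every alternative run. The number of members called stayed at 7 in *SMARCA4* and 5 in *SMARCA1* knockdown under each normalization, filter, DESeq2 and the fit of the 2 arms alone. The share of all genes called under these settings ranged from 24.7% to 51.5% in *SMARCA4* and from 25.8% to 51.9% in *SMARCA1* knockdown, both lowest with no filter. Leaving out single libraries gave 4 to 7 in *SMARCA4* (4 without control replicate 1) and 4 to 7 in *SMARCA1* knockdown, while the share of all genes called ranged from 25.0% to 52.0% and from 25.1% to 53.9%, both lowest without control replicate 1. It gave 2 to 4 between the knockdowns (20.9% to 45.5% of all genes), 0 to 5 between the *SMARCA4* siRNAs (0.272% to 16.4%) and 0 to 1 between the *SMARCA1* siRNAs (0.00% to 10.9%). Between the *SMARCA4* siRNAs the 5 were reached without either *SMARCA1* siRNA A library, where 16.3% and 16.4% of all genes were called against 6.2% with all libraries. Where 1 library of a group was left, it was assumed to vary like the other groups. Upper quartile normalization gave 4 between the knockdowns, where 35.3% of all genes were called. Between the *SMARCA4* siRNAs, no filter gave 2 (7.35% of all genes) and DESeq2 gave 2 (9.91% of all genes). Pathway list genes called ranged from 17 to 45 (34 with all libraries) in *SMARCA4* and from 23 to 58 (45 with all) in *SMARCA1* knockdown, both lowest without control replicate 1. The cause of these shifts was not tested.

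With the replicate number as a block, 7, 5, 3, 1 and 0 members were called in the 5 comparisons, and *SCD* between the knockdowns passed the threshold (-0.30, adjusted p = 0.049 in edgeR). The shares of all genes called with the block were 46.1%, 47.4%, 37.0%, 7.70% and 0.0947%, in the same order. The replicate differences of the groups correlated between -0.10 and 0.36 over genes. The highest values were 0.36 between *SMARCA4* siRNA A and B and 0.27 between *SMARCA4* siRNA B and *SMARCA1* siRNA A. The main fit did not take the numbers to pair the libraries, and the source of these correlations was not tested.

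Directions turned only where the main fit with all libraries made no call. Among these, *ACACA* between the knockdowns and between the *SMARCA1* siRNAs was called when a *SMARCA1* siRNA A library was left out, as given above. In *SMARCA4* knockdown *FASN* went to -0.0273 with upper quartile normalization and to -0.13 with siRNA B alone, with -0.0060 to 0.0968 over omitted libraries, *ACLY* to 0.0040 with no filter and 0.1151 with siRNA A alone (-0.0143 to 0.0359 over omissions), and *SREBF1* to 0.0475 with siRNA B alone (-0.0975 to -0.0092 over omissions). Over omitted libraries *SREBF1* ranged from -0.14 to 0.0047 in *SMARCA1* knockdown. Between the knockdowns, *ACACA* ranged from -0.12 to 0.43 and *SREBF1* from -0.0558 to 0.0590, the latter at 0.0138 by library totals and 0.0094 with no filter. Between the *SMARCA4* siRNAs *FADS1* ranged from -0.0280 to 0.11 and *ACSL3* from -0.0314 to 0.16. Between the *SMARCA1* siRNAs *ACACA* ranged from -0.36 to 0.73, *ELOVL5* from -0.10 to 0.21, *ELOVL6* from -0.12 to 0.21, *FADS1* from -0.0107 to 0.0089, *FADS2* from -0.36 to 0.0618 and *SREBF1* from -0.19 to 0.0497. *FADS1* there was 0.0446 with upper quartile normalization, 0.0596 by library totals, 0.0073 with no filter, 0.0124 at 1 CPM in 2 libraries and 0.0090 in the 2 arms alone.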
